A study of Schizosaccharomyces pombe with 2 samples.

Results

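The genes described here encode 10 proteins of fission yeast (Schizosaccharomyces pombe) that end transcription by RNA polymerase II or that find and destroy RNA in the nucleus: seb1, rhn1, dhp1, din1, pab2, rrp6, mtl1, mtr4, dis3 and mmi1. They were chosen by gene name, with earlier results of these data known. All 10 were found among the 5113 protein-coding genes of the tables. The measurement was 3' READS, in which each sequencing read marks the place where a polyadenylated transcript ends. The wild-type strain FWP9, growing exponentially at 30 °C in the rich medium YPD, gave 2 libraries, called A and B. They form 1 group without a second condition, the labels do not say whether they came from separate cultures, and no test between conditions was possible, so values are given per replicate with their spread.

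These proteins act where a transcript is finished or discarded. Seb1 binds the tail of RNA polymerase II and RNA motifs that contain GUA and takes part in choosing poly(A) sites, Rhn1 binds the same polymerase tail, and the exonuclease Dhp1, helped by its partner Din1, degrades the RNA that is still attached to the polymerase after cleavage. The nuclear exosome, with the nucleases Rrp6 and Dis3, degrades RNA from its 3' end. It is guided by the helicase Mtr4 of the TRAMP complex, by the related helicase Mtl1, by the nuclear poly(A)-binding protein Pab2 and by Mmi1, a protein with a YTH domain that marks meiotic transcripts for removal through the motif UNAAAC. The machinery thus handles the same kind of RNA ends that the libraries recorded, and the data show where its own transcripts end.

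Ends were read in a window of positions 1 to 400 past each stop codon. These windows held 50977367 reads in A and 54749219 in B. Genes with 50 or more reads in both were called measured, which left 3818 genes and 8 of the 10 named above. The genes rhn1 and mmi1 fell short.

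The bases before the main ends are shown for the measured genes because the signal for cleavage, AATAAA or a variant of it, lies there. Each run has 30 bases, is written 5' to 3' on the gene's strand from the RefSeq genome assembly ASM294v3, and ends at the site named. Capitals mark AATAAA or a variant that differs from it at 1 base, where 1 starts at least 10 bases before the site; of several, AATAAA or else the variant nearest to 20 bases is marked.
seb1, position 96 (chromosome I, 962180 to 962209): ttaagggtataatgtattcggtccaaattt
dhp1, position 82 (chromosome I, 3357835 to 3357864): ataaatAATATAtctgattatttgaatttc
din1, position 15 (chromosome I, 5220205 to 5220234): cgacaAATAATttaaatctattaattttgt
din1, position 93 (chromosome I, 5220127 to 5220156): tgcatttAATACAaactcattttcttatgt
rrp6, position 38 (chromosome I, 613286 to 613315): ttaattttaAATAAAcgaaacaattttgac
dis3, position 98 (chromosome II, 3974114 to 3974143): ttattagaaAATAAAatttgttgtattgtg
mtr4, position 45 (chromosome I, 1345044 to 1345073): tgcttaatattaatttttggattttgggat
mtl1, position 67 (chromosome I, 2007968 to 2007997): ggcctatcaaatatgatttcgattttgtgc
mtl1, position 191 (chromosome I, 2008092 to 2008121): aatccttAATAAGtcatctacatatttttt
pab2, position 350 (chromosome II, 1939744 to 1939773): CATAAAattttgttgtatattgtcgttttt
Exact AATAAA starts 20 bases before the site shown in both exosome nuclease genes, rrp6 and dis3. The other runs hold variants or, for seb1, mtr4 and position 67 of mtl1, none.

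Most of these transcripts ended close to the stop codon. The mean position, weighted by reads, was below the median of all measured genes (143 nt) in 6 of the 8 measured genes, and the median of the 8 was 88.1 nt. By mean position, the order from the stop codon outward was rrp6, din1, mtr4, dhp1, dis3, seb1, mtl1 and pab2. The closest neighbours in this order were rrp6 (38.3 nt in A, 38.04 nt in B), din1 (42.7 and 43.6 nt) and mtr4 (47.4 and 46.3 nt). The ranges of these means in the replicates overlapped in no neighbouring pair. Other measures gave another order: the most used position was 15 in din1 and 38 in rrp6, in both replicates. The median position of din1 was 15 nt in A and 46 nt in B, on either side of that of rrp6 (38 nt in both). At the other end, pab2 (316 nt in A, 294 nt in B) lay far from all others. No test was made of this order or of the 8 genes against the rest.

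**Figure D1:**
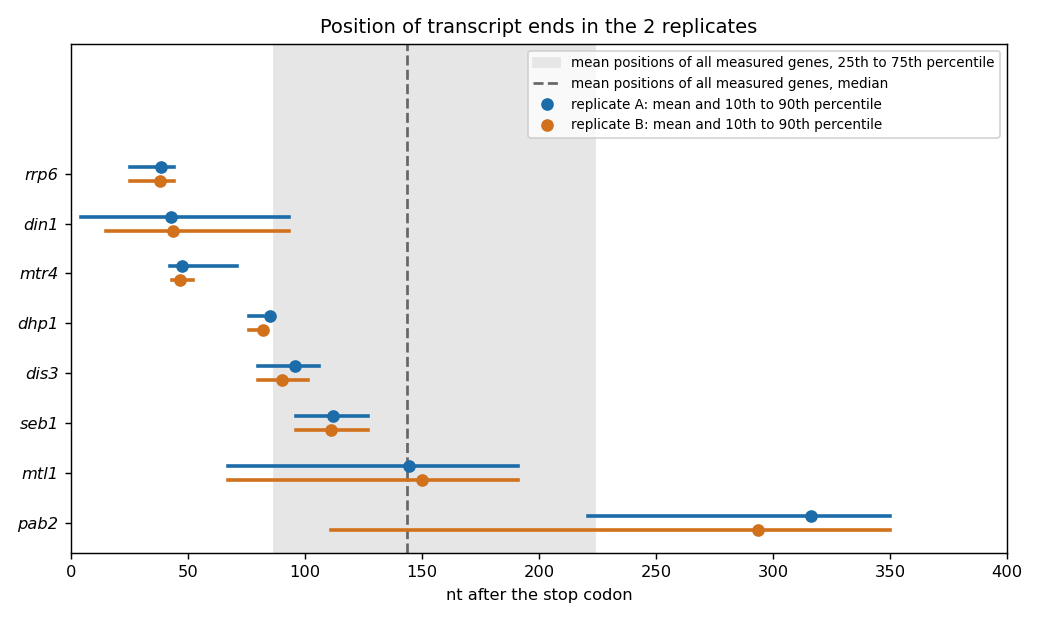
Mean position of transcript ends (points) and the width (lines, running between the 10th and 90th percentiles of reads) for the 8 measured genes, in nt after the stop codon, replicate A in blue and B in orange. The grey band and dashed line give the quartiles and the median (143 nt) of the mean positions of all measured genes: 6 genes have means to the left of the line, mtl1 lies just to its right and pab2 far to its right.

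Among the termination genes, seb1 (SPAC222.09, chromosome I, plus strand, stop codon ending at 962113) had by far the most reads. It held 7231 reads in A and 8106 in B, 145 ± 4.39 RPM (reads scaled to a window total of 1000000; SD, n = 2), more than 89.5% of measured genes. Each read marks 1 transcript end, so read totals were not divided by gene length. Its ends formed a broad but repeatable cluster: positions 96 to 131 took 90.8% of the reads in A (95% Wilson interval 90.1% to 91.4%) and 91.5% in B (90.9% to 92.1%). The most used position, 96 (962209 on chromosome I), took 27.0% in A and 28.6% in B. The mean of these shares was the smallest of the 8 genes, although mtl1 was lower in A alone. The effective number of sites, which is e raised to the profile's Shannon entropy, was 8.25 ± 0.148 (SD, n = 2), against a median of 4.73 over all measured genes; its mean was the highest of the 8, and mtl1 was higher in A alone. Within the cluster, position 114 took 17.2% in A and 17.6% in B, and the adjacent position 115 took 26.3% and 26.4%. The mean position was 112 nt in A and 111 nt in B, and the median position was 114 in both. The annotated transcript ends 114 nt after the stop codon, at these sites and 18 nt past the most used single position. The reads inside the open reading frame (ORF) were 0.959% of ORF and window reads in A (0.760% to 1.21%) and 1.79% in B (1.53% to 2.10%), above the medians of all measured genes, 0.396% and 0.922%.

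The torpedo nuclease gene dhp1 (SPAC26A3.12c, chromosome I, minus strand, stop codon ending at 3357917) had the smallest width of the 8 measured genes. Its width, between the 10th and 90th percentiles of reads, was 6 nt in both replicates, against a median of 62.5 nt over all measured genes. This rank depends on the percentiles used. The SD of its read positions was 37.9 nt in A and 36.2 nt in B, larger than in rrp6, mtr4, dis3 and seb1. Position 82 took 55.1% of the 1389 reads in A (52.5% to 57.7%) and 54.3% of the 1890 in B (52.1% to 56.6%), and position 76 another 25.2% and 27.8%. Position 22 followed with 8.93% and 7.25%. Between positions 155 and 256 lay small sites, of which positions 169, 182 and 229 were used in both replicates and the others in 1 replicate. The annotation runs to 1773 nt after the stop codon, 1691 nt past the most used site, and ends farther than 400 nt lie outside the window and were not seen. The convergent gene SPAC26A3.11 overlaps the window from position 15 on.

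The gene of its partner, din1 (SPAC19D5.06c, chromosome I, minus strand, stop codon ending at 5220220), had separate sites close to the stop codon. The cluster at positions 4 to 15 took 59.8% of its reads in A (54.5% to 64.8%) and 47.9% in B (39.0% to 56.8%). Position 93 took 35.9% (31.0% to 41.1%) and 26.5% (19.3% to 35.1%). The replicates differed in the rest. Position 46 had 30 reads in B and none in A, while the nearby position 44 had 15 in A and none in B. Positions 4 and 7 had 39 and 13 reads in A and none in B. The read total also differed, with 343 reads in A and 117 in B, or 6.73 and 2.14 RPM, 3.15-fold. The reference annotation gives din1 no 3' untranslated region. The next coding gene, ctf8 on the same strand, is annotated from position 106 on, and its coding sequence begins 207 nt after the stop codon.

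For rhn1 (SPBC337.03, chromosome II, plus strand, stop codon ending at 1036864) almost nothing was recorded. There was no read in the window in A, which at this depth allows up to 3 reads or 0.0588 RPM, and 2 reads in B, at positions 42 and 45. It also has no annotated 3' untranslated region. The same-strand kinase gene ppk27 starts 213 nt past the stop codon, and no read of the rhn1 window lay from there on. Its level was not measurable at this depth, which is not to say that the transcript is absent.

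The exosome nuclease genes both ended before the median position of all measured genes. In rrp6 (SPAC1F3.01, chromosome I, plus strand, stop codon ending at 613277) position 38 (613315 on chromosome I) took 57.2% of the 1697 reads in A (54.8% to 59.5%) and 52.4% of the 2286 in B (50.4% to 54.4%). Its profiles in the replicates overlapped by 99.2% in bins of 20 nt, the highest overlap of the 8, against a median of 85.9% over all measured genes. The annotated end lies 61 nt after the stop codon, 23 nt past the main site.

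The transcripts of dis3 (SPBC26H8.10, chromosome II, plus strand, stop codon ending at 3974045) had a pair of sites that both libraries share. The cluster at positions 98 to 106 took 68.3% of the 1362 reads in A (65.8% to 70.7%) and 61.3% of the 1293 in B (58.6% to 63.9%). The cluster at positions 75 to 80 took 25.4% (23.2% to 27.8%) and 32.5% (30.0% to 35.1%). Each of the peaks, at positions 80 and 98, is preceded by its own AATAAA, which starts 19 bases before the first and 20 bases before the second. The proximal share was higher in B and the distal share higher in A, and these intervals, which cover counting error only, did not overlap. The convergent gene the4 overlaps the window from position 52 on.

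**Figure D2:**
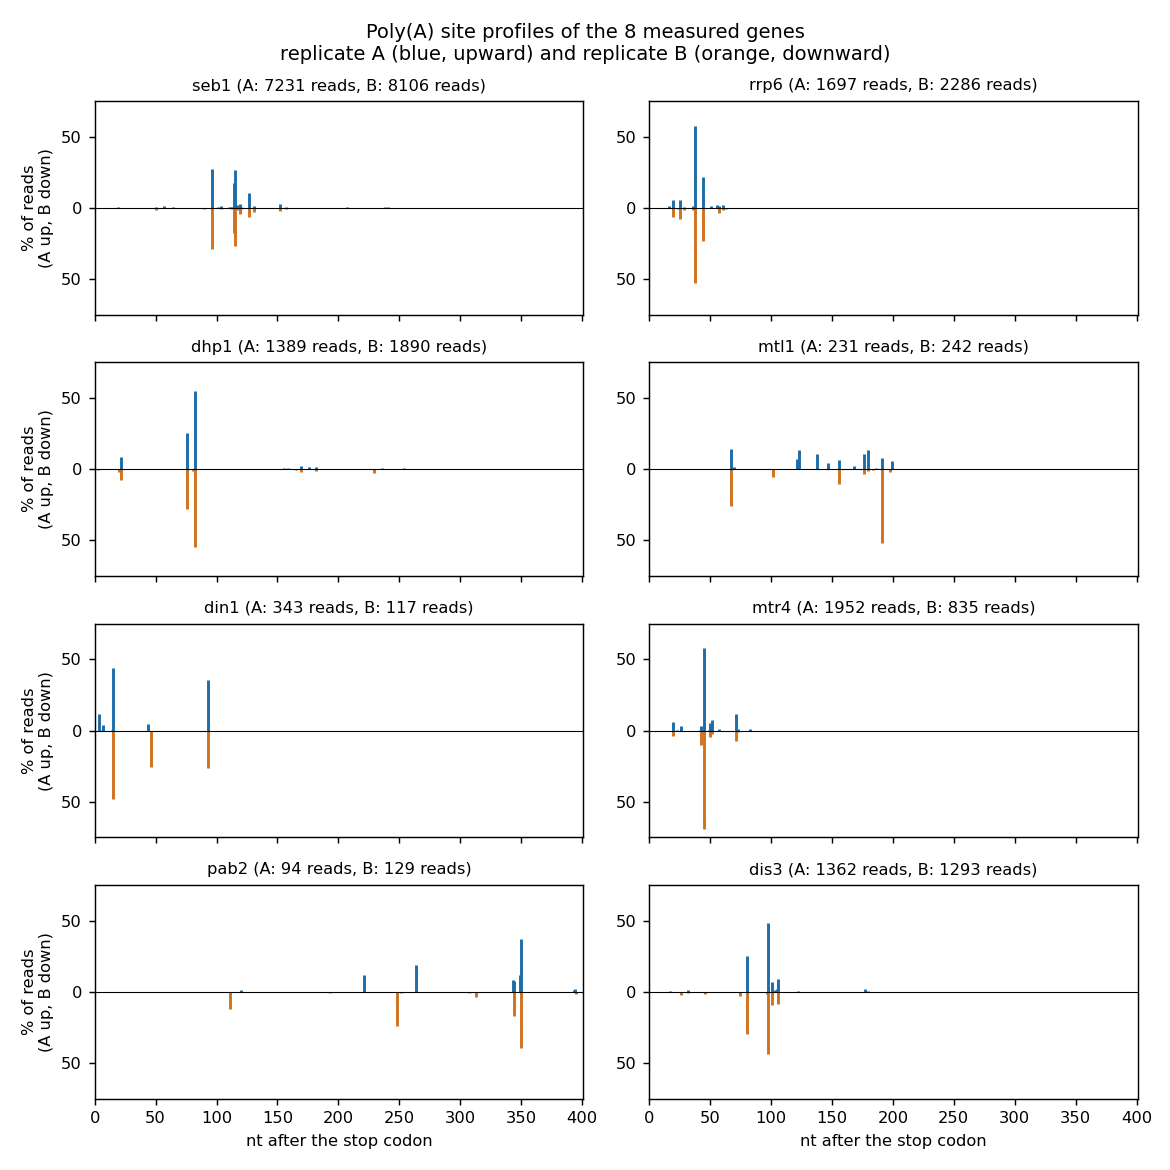
Share of each measured gene's window reads (y axis, percent) at every position after the stop codon (x axis, nt), replicate A upward in blue and replicate B downward in orange. The profiles of seb1, dhp1, rrp6, mtr4 and dis3 are near mirror images. Those of mtl1, din1 and pab2, each with under 500 reads in the shallower replicate, differ more. In din1 and pab2 the replicates share the most used position, whereas in mtl1 it is 67 in A and 191 in B.

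The related helicase genes mtr4 and mtl1 did not overlap in mean position, width or level between their replicates. In mtr4 (SPAC6F12.16c, chromosome I, minus strand, stop codon ending at 1345089) position 45 took 58.2% of the reads in A (56.0% to 60.4%) and 69.2% in B (66.0% to 72.3%), the largest share at 1 position among the measured genes of the set. None of the AATAAA variants starts 10 to 40 bases before it. The total was 1952 reads in A and 835 in B, which is 38.3 and 15.3 RPM or 2.51-fold. The mean positions were close, 47.4 nt in A and 46.3 nt in B, but the width was 29 nt in A and 9 nt in B. The intervals for position 45, which cover counting error only, did not overlap.

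In mtl1 (SPAC17H9.02, chromosome I, plus strand, stop codon ending at 2007930) the ends were spread over more than 100 nt, with a width of 124 nt in both replicates. The totals were alike, 231 reads in A and 242 in B, 4.48 ± 0.0787 RPM (SD, n = 2), and both replicates lay below both values of mtr4. Yet the replicates put the weight at different sites. Positions 191 to 199 took 13.9% of the reads in A (9.99% to 18.9%) and 53.3% in B (47.0% to 59.5%), while positions 138 to 156 took 21.6% (16.8% to 27.4%) and 10.3% (7.10% to 14.8%). Position 67 took 14.3% in A and 26.0% in B and was the most used position in A, whereas position 191 was the most used in B. In A no position stood out: position 67 had 33 reads, position 180 had 32, position 123 had 31 and positions 138 and 176 had 25 each. In B position 191 had 125 reads, position 67 had 63 and position 156 had 25. The mean positions, 144 and 150 nt, do not show this difference. The profiles overlapped by only 45.2%, the lowest value among the members.

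**Figure D3:**
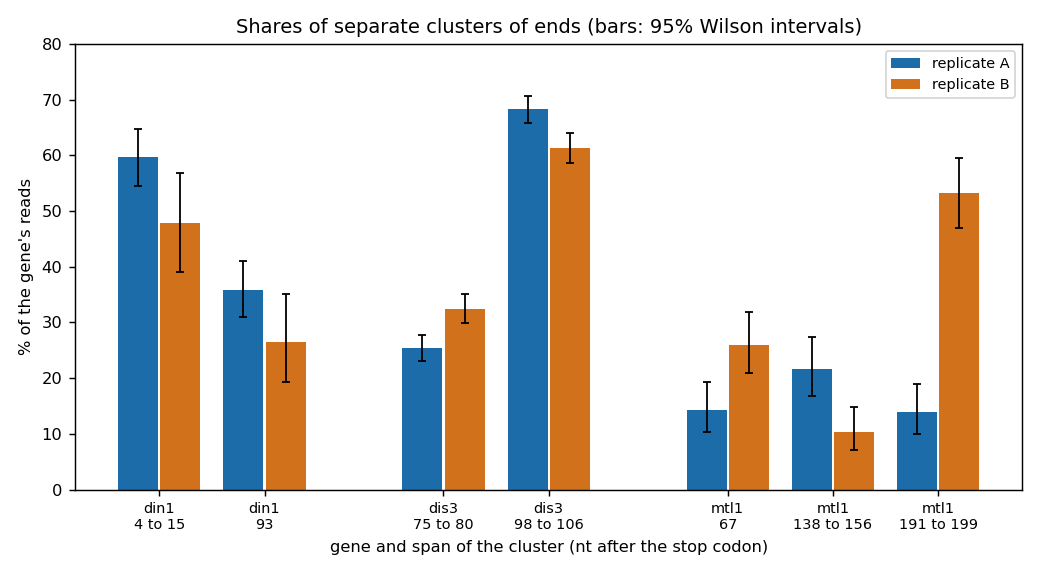
Share of reads (y axis, percent) in each separate cluster of ends for the 3 genes with several clusters, with 95% Wilson intervals for counting error, replicate A in blue and B in orange. In dis3 the order of the clusters is the same in both replicates, and in mtl1 the cluster at positions 191 to 199 holds 13.9% in A and 53.3% in B.

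Of the RNA-binding proteins, pab2 (SPBC16E9.12c, chromosome II, minus strand, stop codon ending at 1940094) ended farthest from the stop codon. Positions 343 to 350 took 64.9% of the 94 reads in A (54.8% to 73.8%) and 56.6% of the 129 reads in B (48.0% to 64.8%). Position 350 was the most used in both, with 37.2% and 39.5%. Upstream of that cluster the replicates shared no site: position 264 had 18 reads in A only and position 221 had 11, whereas position 248 had 31 and position 111 had 15 in B only. The annotation runs 723 nt past the stop codon, so its reads here describe the first 400 nt. The next coding sequence on that side, that of pub3, is 1615 nt away, the largest distance among the members.

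The YTH gene mmi1 (SPCC736.12c, chromosome III, minus strand, stop codon ending at 337829) had 5 reads in A, all at position 379, and 59 in B, of which 29 lay at position 177, 12 at position 65, 9 at position 214 and 9 at position 398. No position was used in both replicates. The annotation runs 741 nt past the stop codon, beyond the window, so neither its level nor its main site can be read from these tables.

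The level in RPM was highest for seb1. Then came rrp6 (33.3 in A, 41.8 in B), dhp1 (27.2 and 34.5), mtr4 (38.3 and 15.3) and dis3 (26.7 and 23.6), whose ranges overlapped for rrp6 and dhp1 and, because of its spread, for mtr4 with each of the other three. The ranges of dhp1 and dis3 did not overlap. The genes mtl1 (4.53 and 4.42), din1 (6.73 and 2.14) and pab2 (1.84 and 2.36) were lower, below the median of all measured genes (11.4 RPM). The ranges of din1 and mtl1 overlapped, as did those of din1 and pab2. A difference of over 2-fold between replicates occurred in 2 of the 8, din1 and mtr4, and in 10.6% of all measured genes. In both of them replicate A was higher.

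**Figure D4:**
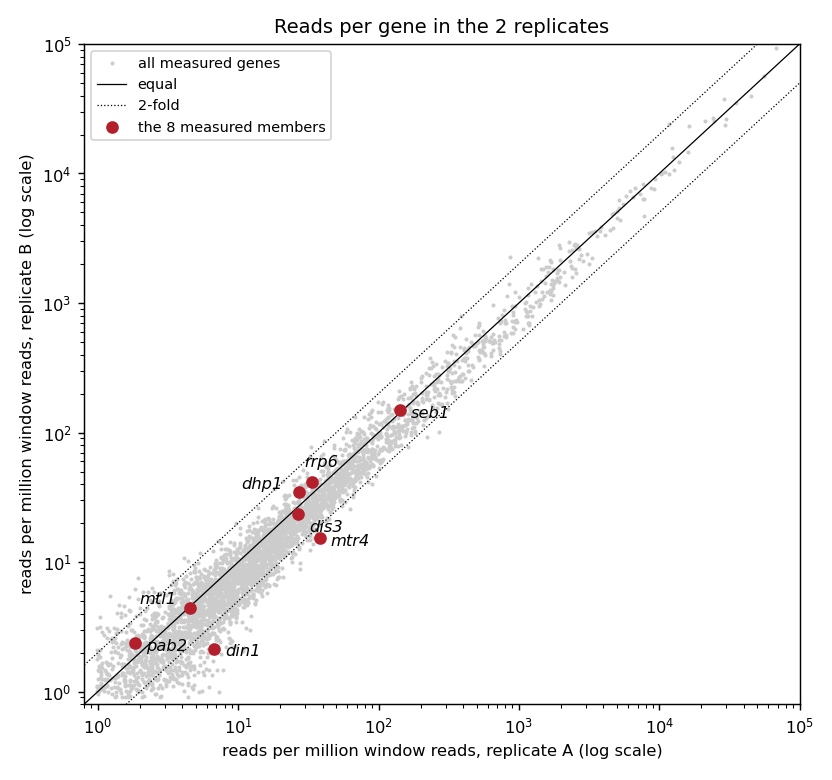
RPM, the window reads of a gene scaled to 1000000, in replicate A (x axis) and B (y axis), both on log scales, for all measured genes (grey) and the 8 measured members (red). The solid line marks equal values and the dotted lines a 2-fold difference: din1 and mtr4 lie below the lower dotted line and the other 6 members between the lines.

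Agreement between the replicates is described here, and no count was tested against all measured genes. The most used position was the same in 7 of the 8, all but mtl1, and in 72.4% of all measured genes. The mean position differed by over 10 nt only in pab2 (22.6 nt), against 33.9% of all measured genes. By median position the genes past 10 nt were instead din1 (15 nt in A, 46 nt in B) and mtl1 (147 and 191 nt). The share of all measured genes past 10 nt by that measure is not given here. The replicates' positions differed more at low depth. The share of reads at positions that the other replicate did not use, averaged over A and B, was 1.14% to 3.86% in the 5 members with at least 500 reads in the shallower replicate, against a median of 3.13% over the 1927 genes of that depth. Within single replicates it ran from 0.235% (mtr4 in B) to 5.98% (dhp1 in A). In din1, mtl1 and pab2 the average was 22.9% to 49.4%, against a median of 17.9% over the 1891 shallower genes. Their replicates differed, with 20.1% in A and 25.6% in B for din1, 55.3% and 43.4% for pab2, and 46.3% and 7.44% for mtl1. Reads were heaped on few positions even there: the 94 reads of pab2 in A lay on 9 positions and the 117 of din1 in B on 3. Whether such heaps are copies of few molecules was not tested, and the Wilson intervals take each read as independent.

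Separate clusters of ends (gaps of over 10 nt, each with at least 10% of the reads in each replicate) were found in 3 of the 8, din1, mtl1 and dis3, and in 48.2% of all measured genes. No test was made of the 3 against that share. The median width of the 8 was 27.25 nt, with 5 below the median of all genes, and ran from 6 nt in dhp1 to 184 ± 77.8 nt (SD, n = 2) in pab2. The profiles of the 28 pairs of members overlapped by a median of 11.9%, a value not set against pairs of other genes, and the highest overlap, 77.6%, was that of dhp1 and dis3.

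Sequence around the main ends is given beside the share in all measured genes, and no count here stands as a result about the set. AATAAA or a variant at 1 base started 10 to 40 bases before the most used site in 6 of the 8 genes and in 72.3% of all measured genes, and AATAAA itself in 3 (rrp6, dis3 and mtl1, where it lies before the bases shown for position 191) and in 20.8%. The motif TGTA, which holds the GUA that Seb1 binds, occurred on the transcribed strand within 50 bases of the most used site in 6 of the 8 genes, all but dhp1 and mtl1, and in 54.4% of all measured genes. The seb1 transcript itself has TGTA starting 17 bases before and 17 bases after its most used position, 96. Its sites at positions 114 and 115 were not searched separately. The first of these lies within the run shown above. The Mmi1 motif, searched as TNAAAC on the transcribed strand of positions 1 to 400, occurred in 5 of the 8 (seb1, din1, pab2, mtl1 and mtr4) and in 56.5% of all measured genes. It also occurs in the windows of rhn1, at position 48, and of mmi1 itself, at positions 57 and 356. A match to such short letters is a description and shows no binding.

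The genes rrp6, mtl1, dhp1, din1 and rhn1 have the next coding sequence 221, 219, 168, 207 and 213 nt past the stop codon. Whether reads were assigned by strand is not given in the sources used here, so the shared coordinates were compared. Over the coordinates that rrp6, mtl1 and dis3 share with their convergent partners mkh1, rdl1 and the4, no position was used by both genes in either replicate. For seb1 with byr4 and dhp1 with SPAC26A3.11 there was 1 such position in each replicate, with unequal reads. No reads of din1 or mtr4 lay within the part of the window that belongs to the next same-strand coding gene.

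Other genes of these pathways, from 4 lists of 32 genes, lay mostly below the median position of all measured genes. Of the 29 measured, 21 ended below it and 8 above, with a median of 94.3 nt. The lists were chosen with earlier results of these data known, and no test was made of these counts. These positions describe ends within 400 nt only. Some listed genes, such as rrp42 (1137 nt) and cbc2 (1442 nt), and 23.2% of all measured genes have annotated ends farther out. The exosome ring and its cofactors had 7 of 11 below it, from rrp43 (67.1 ± 1.85 nt, SD, n = 2) to rrp40 (254 ± 2.31 nt). The TRAMP genes cid14, a poly(A) polymerase (35.5 ± 8.58 nt), and air1 (125 ± 5.28 nt) were both below. The partners of Mtl1 and Mmi1 had 7 of 10 below, from ars2 (38.5 ± 2.24 nt; pir2 in the tables) to the cap-binding gene cbc2 (362 ± 5.67 nt). Of the termination partners 6 of 9 were measured, 5 of them below, from the phosphatase gene ssu72 (32.0 ± 3.77 nt) to swd22 (258 ± 16.2 nt). The helicase gene sen1 ended at 45.9 ± 1.02 nt and the elongation factor gene spt5 at 92.5 ± 0.277 nt. The unmeasured genes were dis2, ppn1 and spt4.

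Across all measured genes, the profiles most like those of the members, by overlap in bins of 20 nt averaged over the 2 replicates, were those of npa3 for seb1 (91.2%), nbp35 for dhp1 (85.7%), mit1 for din1 (79.8%), rae1 for pab2 (75.9%), swd1 for rrp6 (92.3%), rpl2101 for mtr4 (92.4%) and trs401 for dis3 (85.5%). For mtl1, whose own replicates overlapped by 45.2%, the closest was pcf11 (66.7%), with only 169 reads in A and 70 in B. The reads of mit1 were also few, 57 in A and 67 in B. Each gene named is the highest overlap among all measured genes, so no shared function is read from it.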

How the data were processed

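The 2 libraries were made from polyadenylated RNA by 3' READS. Bowtie is named, per the submitters' processing notes; version, settings, genome build and strand use: not given in the sources used here. The authors deposited read signal values (ORF total, window total and most used position) and, at each of 400 positions, the level as a percent of the most used position. The deposited weighted average location is a score in nt. Deposited signal values were multiples of 0.930 in A and 0.869 in B: 100% of the 1945 and 2079 most-used-position values of up to 100 reads were whole within 0.1. Values were divided by these steps to give reads, and mean positions differed from the deposited location by at most 0.0950 nt. A merged table served as an alternative.

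Stop codons of all 5113 protein-coding genes matched RefSeq ASM294v3. Width is the 90th minus the 10th percentile of read positions. Clusters join positions with at least 1% of reads. Python 3.11.15, numpy 2.4.6, pandas 2.3.3 and scipy 1.17.1 were used, and the position and cluster steps were tested on simulated data. All members are named, with the measured gene most like each, and the lowest and highest of each pathway list (sen1, spt5 and the unmeasured genes were chosen after their values were seen). Members and lists were chosen with earlier results of these data known. The counts of positions used in 1 replicate, the depth classes and the comparison with convergent genes were added after the data were seen.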

Additional observations from a re-analysis of the deposited data

How the results depend on the processing

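The median position of the members was 88.1 nt, 83.5 nt with positions 1 to 300, where pab2 was left out for too few reads, and 92.8 nt without a read filter, where mmi1 entered with 5 reads in A. With 1 replicate left out it was 86.1 to 90.2 nt. The median width was 27.25 nt, 23.5 nt with positions 1 to 300, and 26 to 30 nt with 1 replicate left out. With median in place of mean positions 2 members, din1 and mtl1, differed by over 10 nt between replicates, and pab2 (349 nt in A, 344 nt in B) did not. The share of all measured genes is not given here for median positions. Several clusters were found in 3 of 8 members, in 5 with a gap of 5 nt (55.8% of all measured genes) or a cluster share of 5% (61.9%), in 4 without A (63.1%) and in 6 without B (62.5%). The counts below the median position and width, with a hexamer and with TGTA stayed within 1.5 times. By the SD of read positions, however, only 4 of 8 members lay below the median of all measured genes, against 5 by width. A hexamer 10 to 30 bases upstream occurred in 6 members and 66.3% of all measured genes. TGTA in the 100 bases downstream occurred in 5 members and 63.9%. Counts for 2-fold RPM differences, the same most used position, AATAAA itself and TNAAAC were not recomputed. No paired analysis was possible because there is 1 group. Depth limits rhn1, mmi1, din1, mtl1 and pab2 most. The window also limits dhp1, pab2 and mmi1, whose annotated ends lie past 400 nt, as do those of 23.2% of measured and 45.4% of unmeasured coding genes.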
